A study of Mus musculus with 12 samples.

Results

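The AP-1 genes of mouse regulatory T cells (Tregs) were read library by library, as the 10 rows of a table of 55228 gene symbols that carry the names Fos, Fosb, Fosl1, Fosl2, Jun, Junb, Jund, Ier2, Atf3 and Batf3. The genes were chosen from the levels in 1 library, replicate 3 of the 1G12t group, which stood apart from its mates. What that library shows is a description here, and its own levels carry no test. It does enter the spread behind every p from a fit of all 12 libraries, so member counts are also given without it. All Tregs came from the pooled lymph nodes of 16 NOD.Foxp3-GFP mice, a strain prone to autoimmune diabetes in which GFP reports Foxp3, and were sorted as GFP+CD25+ cells. Cells of the pool went in 3 portions through separate sorting machines and were activated apart, with beads coated with antibodies to CD3 and CD28. These portions are the replicates of every group, so that p-values measure only the spread between cultures of 1 pool. On day 2, cells received an MSCV retrovirus with the cell-surface reporter Thy1.1, either empty (EV) or with a tether, in which an orthogonal IL-2 is linked to the orthoIL-2Rβ chain, with the variant 1G12 in 1G12t cells and 3A10 in 3A10t cells. On day 4, EV no IL-2, 1G12t and 3A10t cells were washed free of IL-2 for 5 more days, while a share of the EV culture stayed in IL-2 medium (EV+IL-2), and day 9 was the day on which Thy1.1+ cells were collected by sorting. The vector promoter is active in any transduced cell and is not specific to Tregs. Each group had 3 libraries, 12 in all.

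AP-1 is a dimer of basic leucine zipper (bZIP) proteins. Jun proteins pair with each other or with Fos proteins, which cannot form a stable dimer alone, and Atf3 and Batf3 pair with Jun proteins. Fos, Jun and Junb are immediate early genes: signals through MAP kinases switch on their transcription within minutes without new protein synthesis, and their short-lived mRNAs soon fall again. In T cells the T cell receptor and IL-2 both reach these genes, and AP-1 partners NFAT and Irf4 at cytokine and effector genes. Ier2 is an immediate early gene that encodes a small nuclear protein and not a bZIP factor.

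The promoters of Fos, Jun and Junb are shown because these were the bZIP members called higher with IL-2 in at least 1 fit. In GENCODE M21 on GRCm38, Fos lies on chromosome 12 from 85473890 to 85477273 on the plus strand and has 4 exons. Jun lies on chromosome 4 from 95049034 to 95052222 and Junb on chromosome 8 from 84974484 to 84978718, both on the minus strand and both with a single exon. Each sequence is the 150 bases before the RefSeq transcription start (GRCm38.p6), 5′ to 3′ on the gene's strand. Capitals mark TGACG, the half-site of the cAMP response element (CRE), or in Jun the CRE-like letters TGACNTCA.
Fos, chr12:85473740-85473889, plus strand: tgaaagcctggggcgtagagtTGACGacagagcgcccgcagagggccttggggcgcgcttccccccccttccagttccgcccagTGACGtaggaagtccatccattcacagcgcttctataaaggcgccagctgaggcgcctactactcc
Jun, chr4:95052223-95052372, minus strand: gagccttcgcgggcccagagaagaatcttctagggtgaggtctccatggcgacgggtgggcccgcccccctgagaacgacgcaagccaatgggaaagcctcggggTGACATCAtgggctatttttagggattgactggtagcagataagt
Junb, chr8:84978749-84978898, minus strand: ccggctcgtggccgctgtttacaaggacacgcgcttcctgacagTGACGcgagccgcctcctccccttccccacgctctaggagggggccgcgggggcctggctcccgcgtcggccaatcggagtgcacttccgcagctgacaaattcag
In Fos, TGACG stood at −129 to −125 and at −66 to −62 from the start, in Junb at −106 to −102, and in Jun the CRE-like match was at −45 to −38. These 2 motifs were chosen after the sequences were seen. Of 8 members with a promoter in the RefSeq table, 4 held TGACG on either strand in the window from 250 bases before to 50 after the start, and so did 20.8% of all 32851 promoters. The CRE-like letters stood in 1 of 8 and in 8.83% of all promoters. The full AP-1 motif TGANTCA was in 0 of 8 (7.81% of all), the full CRE TGACGTCA, which overlaps both motifs above, in 0 of 8 (1.79%), the CArG box in 0 of 8 (1.63%) and the GAS letters TTCNNNGAA in 1 of 8 (8.3%), which was Batf3 at −239 to −231. The 8 include Jund, whose RefSeq window, from 70697489 to 70697788 on chromosome 8, lies over 1 kb before its GENCODE start at 70698949 and held none of these motifs, so its match count does not describe the promoter at that start. The windows of Fosl2, Atf3 and Batf3 lie inside the gene, past its GENCODE 5′ end. For Atf3, on the minus strand, the window runs from 191183284 to 191183583 and that end is at 191218039. Matches and positions in these genes, such as that of Batf3, hold for the RefSeq start only. A match is a description of letters and not a binding site. Bases outside this window were not searched, so a count of 0 does not say that a gene lacks the motif.

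The values are TPM, a transcript abundance unit of fixed library total, which are divided by transcript length and so can be compared between genes. TPM keep no read number, so sequencing depth is unknown and no counting error can be given. Between 30393 and 36239 genes were above 0 in the EV+IL-2 libraries and between 37930 and 43285 in the others. The Treg markers Foxp3, Il2ra, Ikzf2, Ctla4, Cd4 and Cd3e summed to between 1612 and 2264 scaled TPM in every library. B cell markers summed to at most 16.7, CD8 T cell markers to at most 6.57 and NK cell markers to at most 0.525. Of 5 myeloid markers, Cst3 lay between 444 and 770.0 and the other 4 summed to at most 3.07. In bulk RNA, fewer cells that express a gene and less RNA per cell cannot be told apart. TPM were rescaled per library, and fold changes are differences in log2(scaled TPM + 1), tested with limma over the 15043 genes whose TPM averaged 1 or more, with a Benjamini-Hochberg adjusted p over all of them and a gene called at an adjusted p under 0.05. The added 1 understates the change of low genes.

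Of the 10 members, 7 passed the filter. Fosl1, Atf3 and Batf3 had mean TPM of 0.377, 0.698 and 0.447 and were not tested. Fosb passed, with a mean of 1.75, through replicate 3 of 1G12t alone. Without that library its mean was 0.725. Member counts out of 7 below include Fosb, and those out of 6 leave it out. Transcripts of the Jun family outweighed those of the Fos family in every library. Over the 9 bZIP members summed, Jund took 32.7% to 61.1% and Junb 25.7% to 52.3% of the scaled TPM, and Jun took 5.58% to 10.8%. Fos took 1.32% to 7.38% in 11 libraries and 23.4% in replicate 3 of 1G12t. The sum itself was 1709 in that library, against 739 to 1400 in the other 11.

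**Figure D1:**
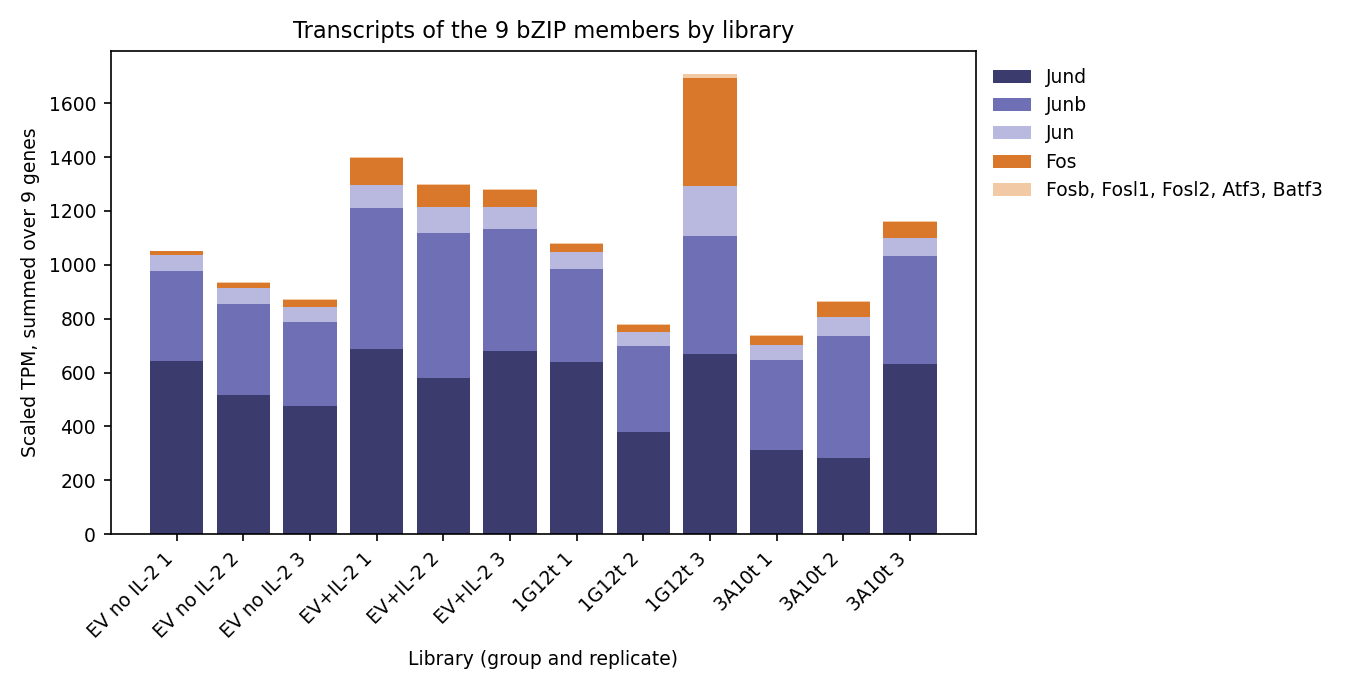
Scaled TPM of the 9 bZIP members stacked by library (y axis, linear, from 0), for the 3 libraries of each group (x axis). Jund and Junb form most of each bar, the Fos segment is widest in 1G12t replicate 3 at 23.4%, and the EV+IL-2 bars stand between 1280 and 1400.

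**Figure D2:**
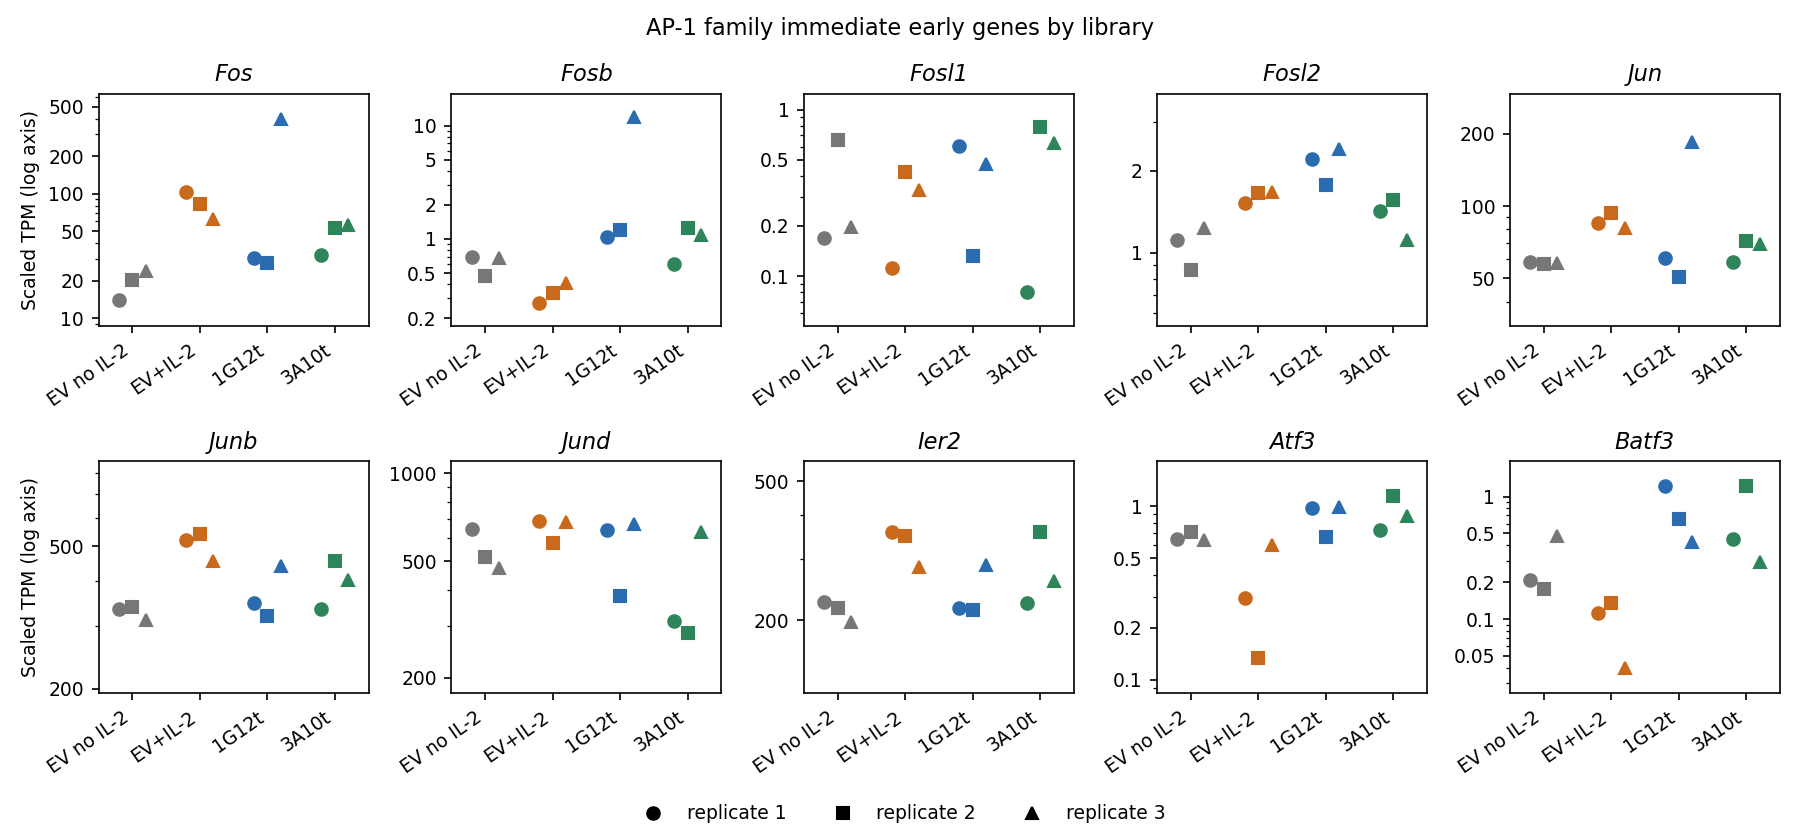
Scaled TPM of each of the 10 members (y axis, log scale, a separate range per gene) in the 4 groups (x axis), with 1 point per library and the shape giving the replicate number. Fos, Fosb and Jun were far higher in 1G12t replicate 3 than in the other 11 libraries, and Fos, Jun, Junb and Ier2 were higher in all 3 EV+IL-2 libraries than in all 3 EV no IL-2 libraries.

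The comparison of EV+IL-2 with EV no IL-2 asks what IL-2 in the medium did to these genes in the same transduced cells. Fos, Jun, Junb and Ier2 were higher in every library kept in IL-2, Fos by about 4-fold and the other 3 by about 1.5-fold. Fosb, Atf3 and Batf3, all near or under 1 TPM, were lower in every library kept in IL-2. Jund, the most abundant member, overlapped between the groups.

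Fos, the most inducible partner of Jun, was at 13.9, 20.2 and 24.0 scaled TPM in replicates 1 to 3 of EV no IL-2 and at 103, 82.4 and 62.2 in EV+IL-2. The lowest EV+IL-2 library stood above the highest EV no IL-2 library, and the ratio of the group means was 4.27. On the log2 scale the difference was 2.04 with an SE of 0.80 in the fit of all 12 libraries, which did not pass the test (limma, adjusted p = 0.1281). Replicate 3 of 1G12t, which is in neither group, sets the spread of Fos in that fit. Without it the difference was again 2.04 with an SE of 0.26, and Fos was called (limma, adjusted p = 0.000611). The fit of only the 6 libraries compared gave an adjusted p of 0.001782 by limma.

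Jun, the founding member of the family, was at 58.8, 57.3 and 57.8 scaled TPM in EV no IL-2 and at 84.8, 94.0 and 81.0 in EV+IL-2. The groups did not overlap, and the EV no IL-2 libraries lay within 2 TPM of each other. The log2 difference was 0.57 with an SE of 0.36 over all 12 libraries (limma, adjusted p = 0.3754) and 0.57 with an SE of 0.10 without replicate 3 of 1G12t (limma, adjusted p = 0.004877).

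Junb, which can also oppose Jun at shared sites, was at 334, 339 and 311 scaled TPM in EV no IL-2 and at 522, 539.8 and 453 in EV+IL-2. The log2 difference was 0.62 with an SE of 0.14, and Junb was called in the fit of all 12 libraries (limma, adjusted p = 0.01249). Ier2 was at 226, 217 and 197 and at 357, 347 and 285, with a log2 difference of 0.62 and an SE of 0.17 (limma, adjusted p = 0.03665). Neither gene's groups overlapped. Ier2 and Junb both lie on chromosome 8, 311.6 kb apart with 18 protein-coding genes between them.

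Fosl2, a Fos protein of later induction, was at 1.11, 0.866 and 1.23 scaled TPM in EV no IL-2 and at 1.52, 1.66 and 1.67 in EV+IL-2. These libraries did not overlap, but the log2 difference of 0.34 with an SE of 0.16 did not pass (limma, adjusted p = 0.2056). Jund, which is present in resting cells, was at 643, 516 and 476 and at 688, 579 and 681. Its groups overlapped, and its 95% interval ran from −0.39 to 0.91 on the log2 scale.

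Fosb, a close relative of Fos, was at 0.695, 0.472 and 0.685 scaled TPM in EV no IL-2 and at 0.275, 0.330 and 0.407 in EV+IL-2, the opposite order to Fos. Since Fosb was kept by the filter through replicate 3 of 1G12t alone, no p of it is given. It was not called in any count out of 7 members. Its log2 difference was −0.27 and, with quantile normalization, turned to 0.16. Atf3, a stress-induced repressor, was at 0.645, 0.708 and 0.638 and at 0.295, 0.134 and 0.596, and Batf3, known for its need in cross-presenting dendritic cells, was at 0.208, 0.177 and 0.478 and at 0.112, 0.134 and 0.0398. All 3 low genes were below EV no IL-2 in all 3 EV+IL-2 libraries. A lower level in EV+IL-2 was not particular to these members among low genes. Mean scaled TPM in EV+IL-2 against EV no IL-2 were 0.0369 and 0.183 for Ms4a1, 0.0408 and 0.198 for Lyz2 and 0.155 and 0.779 for Batf2. Csf2, at 0.550 and 0.253, and Il4, at 1.63 and 0.388, went the other way. The EV+IL-2 libraries also had the fewest genes above 0, and the part of this in the low values was not tested. Fosl1, the remaining low gene, ran from 0.112 to 0.423 in EV+IL-2 and from 0.169 to 0.659 in EV no IL-2, which overlap.

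In counts, 2 of 7 tested members were called in the fit of all 12 libraries, both higher, where 13.3% of all genes tested were called. At the study's own threshold, which asks for an unadjusted p under 0.01 together with a log2 difference beyond 0.25, the count was also 2 of 7, against 15.1% of all genes. Without replicate 3 of 1G12t, 4 of 6 were called, all higher, against 14.1% of all genes. All 3 libraries stood above or all 3 below in 6 of 7 members, against 39.6% of all genes tested. Fosb is one of the 6, and among the genes kept by the filter without replicate 3 of 1G12t the count was 5 of 6, against 39.7%. The median log2 difference in that fit was 0.59 over the 6 members and −0.01 over all genes. With the shared sort as a replicate block, the fit of all 12 libraries called only Junb (adjusted p = 0.02445), with Ier2 at 0.05621, and the fit without replicate 3 of 1G12t called the same 4 genes. The count over all 12 libraries became 1 without replicate 1 or 2 of EV no IL-2 and 0 without replicate 3 of EV no IL-2 or replicate 1 or 2 of EV+IL-2.

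**Figure D3:**
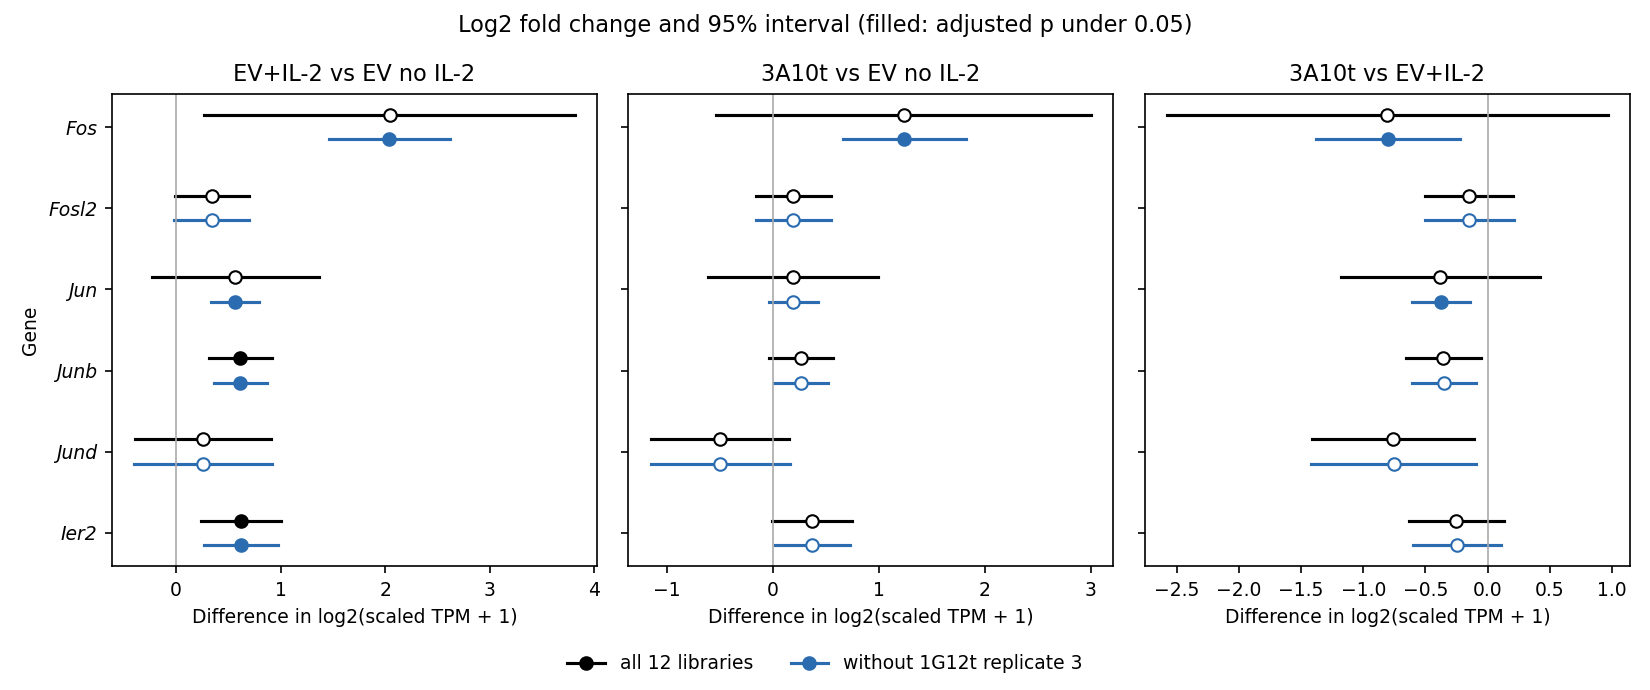
Difference in log2(scaled TPM + 1) with its 95% interval (x axis) for the 6 members tested in both fits (y axis) in 3 comparisons, from the fit of all 12 libraries (black) and without 1G12t replicate 3 (blue). Filled points have a limma adjusted p under 0.05. The Fos estimate of 2.04 for IL-2 was the same in both fits while its SE went from 0.80 to 0.26.

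The comparison of 3A10t with EV no IL-2 asks what the tether did in the absence of IL-2. Fos was higher in all 3 3A10t libraries, at 32.3, 53.1 and 56.1 scaled TPM against 13.9, 20.2 and 24.0. The ratio of the means was 2.44. The log2 difference was 1.24 with an SE of 0.80 over all 12 libraries (limma, adjusted p = 0.3329), and without replicate 3 of 1G12t it was 1.24 with an SE of 0.26, just past the threshold (limma, adjusted p = 0.04995). With the replicate block as well, the adjusted p was 0.07041, so the call rests on the choice of fit. Fos was the only tested member whose 3A10t and EV no IL-2 libraries did not overlap.

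Jun was at 58.3, 71.4 and 69.7 scaled TPM in 3A10t, and replicate 1 lay within the EV no IL-2 range of 57.3 to 58.8. Junb was at 334, 453 and 401, and Ier2 at 224, 357 and 260. In both genes replicate 1 lay within the range of EV no IL-2 and replicates 2 and 3 above it. The log2 differences without replicate 3 of 1G12t were 0.19 for Jun, 0.27 for Junb and 0.37 for Ier2, and none passed (limma, adjusted p = 0.2442, 0.1715 and 0.168).

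Jund went the other way in part of the group, at 311 and 283 scaled TPM in replicates 1 and 2 of 3A10t and 630.5 in replicate 3, against 476 to 643 in EV no IL-2. The log2 difference was −0.50 with an SE of 0.29 and did not pass (limma, adjusted p = 0.2918). Fosb was at 0.604, 1.25 and 1.09, Fosl2 at 1.42, 1.56 and 1.11, Fosl1 at 0.0806, 0.780 and 0.630, and Batf3 at 0.453, 1.22 and 0.294, and each overlapped EV no IL-2. Atf3 was at 0.725, 1.14 and 0.881, above EV no IL-2 in all 3 libraries.

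Of the 7 members, 0 were called over all 12 libraries at an adjusted p under 0.05, where limma called 2.05% of all genes, and 0 at the study's threshold, against 9.5%. At an unadjusted p under 0.05 the limma count was also 0 of 7. The share of all genes at an unadjusted p under 0.05 is not given, here or for the counts below. Those counts can therefore not be set against all genes, and no excess is read from them. Without replicate 3 of 1G12t, 1 of 6 was called, against 1.64% of all genes. The groups did not overlap in 1 of 7, against 25.4% of all genes tested, and in 1 of 6 without Fosb. The median log2 difference without replicate 3 of 1G12t was 0.23 over the 6 members and 0.03 over all genes. TPM as deposited moved the median of all genes by more than 0.1, to −0.09 in this comparison and from −0.02 to −0.18 in that of 3A10t with 1G12t.

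Set against EV+IL-2, the 3A10t libraries held less Fos and Jun and more Fosb, Atf3 and Batf3, with no overlap in any of the 5. Of the low genes, Atf3 passed when the filter on low TPM was dropped, at a log2 difference of 0.52 (limma, adjusted p = 0.02218). Its levels were near the floor, at 0.134 to 0.596 scaled TPM in EV+IL-2 and 0.725 to 1.14 in 3A10t. The EV+IL-2 libraries had the fewest genes above 0, and the part of this in the differences of Fosb, Atf3 and Batf3 was not tested. Fos was at most 56.1 scaled TPM in 3A10t and at least 62.2 in EV+IL-2, and Jun at most 71.4 and at least 81.0. Without replicate 3 of 1G12t, the log2 differences were −0.80 for Fos (SE 0.26, limma, adjusted p = 0.04965) and −0.38 for Jun (SE 0.10, limma, adjusted p = 0.02656). Over all 12 libraries neither passed (limma, adjusted p = 0.4911 and 0.4721). With the replicate block and without that library, Jun remained called at 0.04902 and Fos was at 0.07096.

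Junb lay between 334 and 453 in 3A10t and between 453 and 539.8 in EV+IL-2, ranges that meet at their ends, with a log2 difference of −0.36 (limma, adjusted p = 0.08388 over all 12 libraries). Jund differed by −0.76 with an adjusted p of 0.085 by limma. At an adjusted p under 0.05, 0 of 7 members were called over all 12 libraries, against 23.4% of all genes. At the study's threshold 0 of 7 were, against 22.1%. At an unadjusted p under 0.05 the limma count was 2 of 7, with no share of all genes given. Without replicate 3 of 1G12t, 2 of 6 were called, both lower, against 23.8%. The groups did not overlap in 3 of the 7 tested members, against 36.9% of all genes, and in 2 of 6 without Fosb. The count over all 12 libraries became 1 without replicate 2 of 3A10t, when Junb was called, or without replicate 3 of 3A10t, when Jund was called. These comparisons share libraries, so they are given side by side and not as independent results.

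In 1G12t the 3 libraries did not form one group for these genes. Fos was at 30.3 and 27.7 scaled TPM in replicates 1 and 2 and at 400.0 in replicate 3. The next highest library of the 12 was replicate 1 of EV+IL-2, at 103. Fosb was at 1.05 and 1.20 and then 12.005, and Jun at 60.7 and 50.8 and then 184. Replicate 3 was above the mean of its mates 13.8-fold for Fos, 10.7-fold for Fosb and 3.30-fold for Jun. The other tested members were also above both mates, by 1.21-fold for Fosl2, 1.31-fold for Jund, 1.32-fold for Junb and 1.34-fold for Ier2. These ratios are what the choice of the genes rests on and carry no test.

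Among the 15043 genes tested, Fos ranked 54 by its excess on the log2 scale, Fosb 128 and Jun 224. Among the 10042 genes whose TPM averaged 5 or more, Fos ranked 25 and Jun 59. The genes above them over all genes were led by Traj50 and Mir142, short annotated segments at 0 in both mates. Of all genes tested, 3.2% exceeded the mates by more than 1 on the log2 scale in this library, and 1.15% to 3.09% did so in the other 11 libraries set against their own mates. Such an excess was found for 3 of 7 members in replicate 3 of 1G12t, for 1 of 7 in replicate 3 of 3A10t and for 0 of 7 in the other 10 libraries. Fosb, one of the 3, passed the filter only through replicate 3 of 1G12t. Since the members were chosen from that library, its ranks and count follow from the choice and show no enrichment.

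Of the 10 members, 4 reached their highest level of the 12 libraries in replicate 3 of 1G12t, which were Fos, Fosb, Fosl2 and Jun. The count was 6 with TPM as deposited, which added Jund and Atf3, and also 6 with quantile normalization, which added Junb and Jund. The library in which each of the other members was highest likewise moved with the scaling. Junb, Jund and Ier2 were at 439.6, 669 and 287 scaled TPM in that 1G12t library, and of these Ier2 stayed under the highest EV+IL-2 library on all 3 scales.

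Against EV no IL-2, the 1G12t group as labelled differed by 1.84 for Fos, 1.27 for Fosb, 0.59 for Fosl2 and 0.51 for Jun on the log2 scale, as a description. Without replicate 3, the Fos difference was 0.59 with a 95% interval from −0.06 to 1.24 (limma, adjusted p = 1). Fosl2, at 2.20 and 1.77 scaled TPM in replicates 1 and 2 against at most 1.23 in EV no IL-2, differed by 0.53 with an SE of 0.18 (limma, adjusted p = 1). Jun and Jund turned sign without that library, from 0.51 to −0.06 and from 0.01 to −0.13. In that fit, 0 of 6 members were called at an adjusted p under 0.05, where limma called 0.0672% of all genes. At an unadjusted p under 0.05 there was 1 of 6, Fosl2, with no share of all genes given.

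Between the tethers, Fos was lower in 3A10t than in 1G12t by 0.60 on the log2 scale with all libraries and higher by 0.65 without replicate 3 of 1G12t (95% interval from −0.00 to 1.295, limma, adjusted p = 0.213). Without that library 0 of 6 members were called by limma, against 0.316% of all genes, and also 0 of 6 at an unadjusted p under 0.05. With that library left out, the order of Fos from low to high was EV no IL-2, 1G12t, 3A10t and EV+IL-2, and no neighbouring groups overlapped in their libraries. For 3A10t and EV+IL-2, 36.9% of all genes also had groups that did not overlap. For the pairs with 1G12t, which had fewer libraries here, that share is not given. The place of 1G12t in this order therefore has no background to be set against and is a description only. Of the neighbours in that order, 3A10t and EV+IL-2 alone differed past the threshold, at an adjusted p of 0.04965 by limma, and with the replicate block they did not (limma, adjusted p = 0.07096).

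The other immediate early genes were read from a list of 27, of which 24 passed the filter. With IL-2, 5 rose and 4 fell in the fit of all 12 libraries, where 13.3% of all genes were called. Without replicate 3 of 1G12t, 8 rose and 5 fell, against 14.1%. Dusp6, a phosphatase that turns off ERK, was at 24.1, 24.8 and 26.6 scaled TPM in EV no IL-2 and at 125, 118 and 113 in EV+IL-2, a log2 difference of 2.19 (limma, adjusted p = 0.000127). Dusp1, a phosphatase of JNK and p38, rose by 1.54 (limma, adjusted p = 0.006355), and Egr2, a zinc finger factor of T cell receptor signaling, fell by 1.62 on the log2 scale, from 4.49 to 6.11 down to 0.745 to 1.23 (limma, adjusted p = 0.000106). Nr4a1, an orphan nuclear receptor used as a marker of T cell receptor signaling, fell by 0.96 (limma, adjusted p = 0.01041). Genes of this list thus went both ways with IL-2, and the median of the 24 was 0.11 against −0.01 for all genes.

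**Figure D4:**
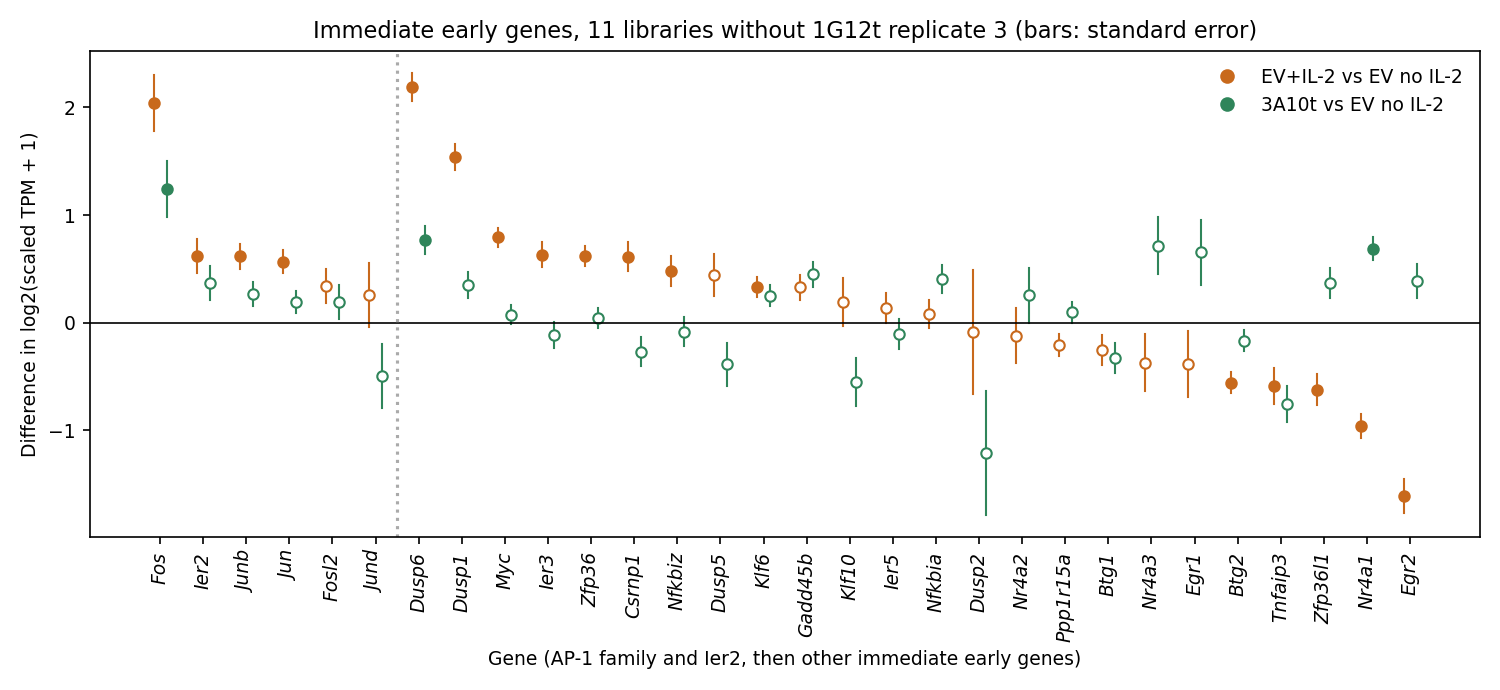
Difference in log2(scaled TPM + 1) from EV no IL-2 (y axis, bars are SE) for the 6 members tested and the 24 other immediate early genes (x axis), in EV+IL-2 (orange) and 3A10t (green), fitted without 1G12t replicate 3. Filled points have a limma adjusted p under 0.05. Fos stands beside Dusp6 and Dusp1 among the genes higher with IL-2, and Egr2 and Nr4a1 stand at the opposite end.

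In 3A10t, 0 of these 24 genes were called over all 12 libraries by limma, against 2.05% of all genes. At an unadjusted p under 0.05 there were 9, a count with no share of all genes beside it. At the study's threshold, which is stricter, 9.5% of all genes passed in this comparison. Without replicate 3 of 1G12t, 2 were called, against 1.64%. Dusp6 was higher there by 0.77 (limma, adjusted p = 0.03571), in the same direction as with IL-2. Nr4a1 was higher by 0.69 (limma, adjusted p = 0.03395), at 19.9, 18.4 and 21.5 scaled TPM against 10.4 to 14.0 in EV no IL-2 and 5.35 to 6.30 in EV+IL-2. The levels of Nr4a1 in 3A10t and in EV+IL-2 thus lay on opposite sides of EV no IL-2, whereas those of Fos and Dusp6 lay on the same side. Replicates 1 and 2 of 1G12t, at 22.5 and 21.8 for Nr4a1, were above EV no IL-2 too, so its higher level was not particular to 3A10t.

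In replicate 3 of 1G12t, 20 of the 24 genes were above both mates, against 36.1% of all genes tested and 2 to 11 of the 24 in the other libraries. The list was written with earlier results of these data known, and the members were chosen from this library. The count is thus a description and not a test. The 3 with the largest excess were Dusp1, at 443 scaled TPM against 195 and 149, Ier5, at 108 against 53.7 and 51.8, and Dusp2, at 194 against 148 and 63.2. Nr4a1 was at 41.0 against 22.5 and 21.8, so Nr4a1 and Fos were both at their highest in this library. Myc, Ier3 and Csrnp1 were below both mates, with Myc at 189.7 against 305 and 273. Heat shock genes lay between −0.26 and 0.13 from the mates on the log2 scale, so that list did not move with the library. Of the Treg markers, Ikzf2 was higher by 0.86 and Il2ra lower by 0.42, and the other 4 were within 0.13.

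**Figure D5:**
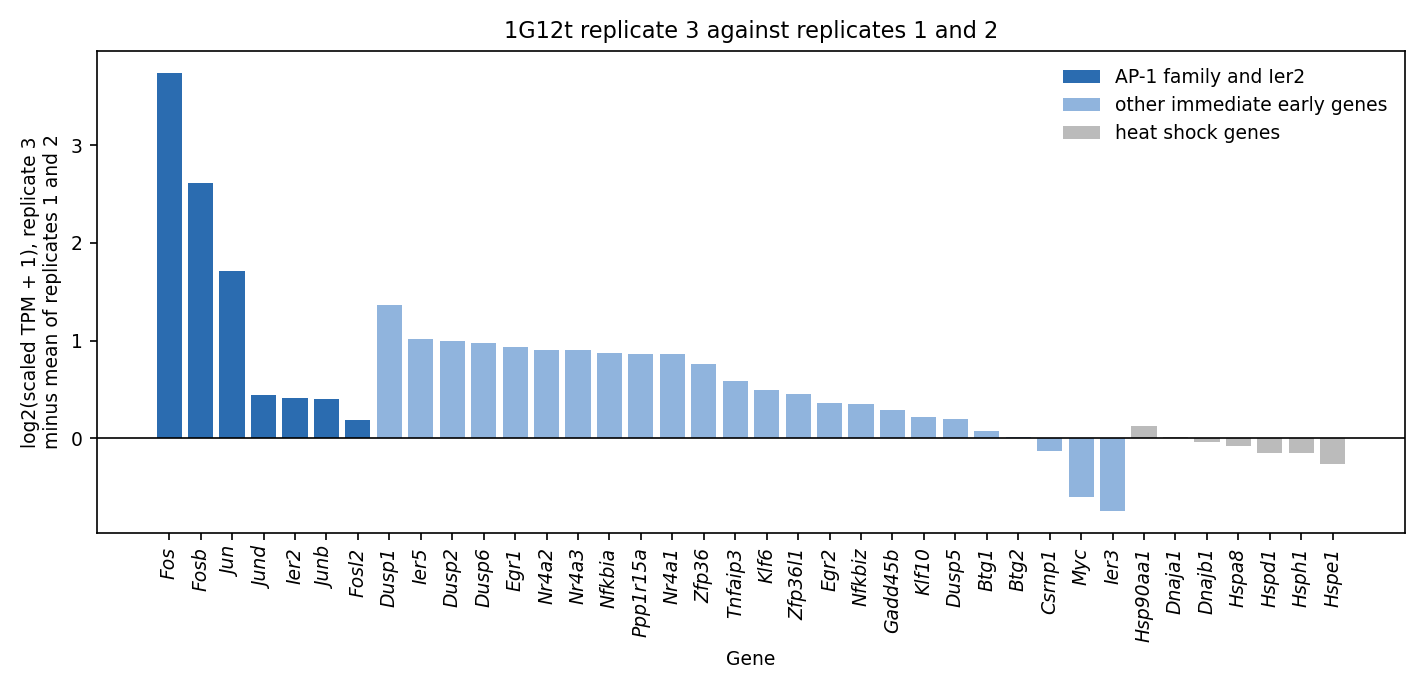
Difference in log2(scaled TPM + 1) between 1G12t replicate 3 and the mean of 1G12t replicates 1 and 2 (y axis, 1 library against 2, with no error) for the 7 members tested, 24 other immediate early genes and 7 heat shock genes (x axis). Fos at 3.74, Fosb at 2.61 and Jun at 1.71 stand above every other gene drawn, Dusp1 follows, and the heat shock genes lie near 0.

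Of 12 other bZIP partners, 10 were tested and 1 was called with IL-2, against 13.3% of all genes. Batf, which pairs with Jun proteins and Irf4 in T cells, was at 114, 111 and 105 scaled TPM in EV no IL-2 and at 179, 181 and 178 in EV+IL-2, a log2 difference of 0.70 (limma, adjusted p = 0.002054). Batf was at 121, 176 and 143 in 3A10t and at 115, 105 and 109 in 1G12t, and replicate 3 of 1G12t did not stand apart. Of 20 kinases and promoter factors upstream of Fos and Jun, against the same 13.3% of all genes, 1 was called with IL-2. This was Elk3, an ETS factor of the serum response, which fell by 0.62 on the log2 scale (limma, adjusted p = 0.002212). In 3A10t, 1 of the 20 was called over all 12 libraries, against 2.05% of all genes. This was Mapk9, a JNK kinase, which fell by 0.41 (limma, adjusted p = 0.0447) and was not called without replicate 3 of 1G12t. At an unadjusted p under 0.05 there were 7 of the 20, with no share of all genes given. The median of the 20 was −0.16, against 0.03 for all genes. Of the 10 partners, 0 were called in 3A10t by limma, against 2.05% of all genes. At an unadjusted p under 0.05 there were 3, with no share of all genes given.

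Of 12 cytokine and surface genes known as AP-1 targets in T cells, 6 were tested. With IL-2, 3 rose and 1 fell over all 12 libraries, where 13.3% of all genes were called. Lta, a TNF family cytokine, rose by 1.86 (limma, adjusted p = 6.701e-06), Tnf by 1.75 (limma, adjusted p = 0.000888) and the activation antigen Cd69 by 1.27 (limma, adjusted p = 0.006053), and Cd40lg fell by 0.59 on the log2 scale (limma, adjusted p = 0.0246). In replicate 3 of 1G12t these genes split: Cd69 was at 165 scaled TPM against 77.3 and 77.9 in its mates, Tnf at 15.0 against 35.03 and 31.9, and the inhibitory cytokine Il10 at 1.85 against 15.6 and 15.4. In 3A10t, 0 of the 6 were called by limma in either fit, against 2.05% and 1.64% of all genes. At an unadjusted p under 0.05 there was 1 over all 12 libraries and 3 without replicate 3 of 1G12t, with no share of all genes given. Of 10 heat shock genes, 7 were tested, and 2 were called with IL-2, against 13.3% of all genes. These were Hspa8 and Hspe1, which rose by 0.39 and 0.38 (limma, adjusted p = 0.0147 and 0.03706). In 3A10t, 0 of the 7 were called by limma, against 2.05% of all genes. At an unadjusted p under 0.05 there were 3, with no share of all genes given. In 1G12t without replicate 3, limma called 0 genes of each of the 5 lists, against 0.0672% of all genes. At an unadjusted p under 0.05 there were 0 to 2 per list, again with no share of all genes given.

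Over the 12 libraries, Fos and Jun had a Pearson r of 0.944 and over the 11 without replicate 3 of 1G12t 0.873. Junb and Ier2 had 0.961 and 0.960. Fosb followed Fos at 0.648 with that library and at −0.323 without it. Jund had an r of at most 0.417 with any other member over the 12 libraries. These describe libraries that share groups and scaling, and no p is given. The 5 genes averaging 5 TPM or more whose pattern was most like the members' mean were Zfp821, Arrdc4, St6galnac2, Casp4 and Hipk2, with r from 0.871 to 0.945 over 12 libraries and from 0.565 to 0.888 over 11. Chosen over the 11 libraries instead, the 5 were Prkcsh, Cenpm, Enkd1, Pcna-ps2 and Smyd2, none of them in the first set.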

How the data were processed

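RNA was measured in 12 libraries, 3 in each of 4 groups, and the labels gave each sample its group and replicate. Per the labels and methods, the authors trimmed 50-bp read pairs with Cutadapt 1.18, aligned them with STAR 2.5.3 (mm10, GRCm38) and estimated TPM with RSEM 1.3.0 and GENCODE, without a strand setting in the sources used here. The deposited TPM were used, and the authors' counts for DESeq2 1.26 were not used here. All 12 columns were used. TPM were divided by median-of-ratios factors, and genes averaging 1 TPM or more were tested with limma 3.58.1 (lmFit and trended eBayes) on the log2 scale after a pseudocount of 1, with all 12 libraries, one mean per group and no replicate block, in 5 comparisons. Since 1G12t replicate 3 chose the members, p-values for 1G12t come only from the fit without it. The other fits were a pseudocount of 0.1 or 5, no filter or an average of 5 TPM, the TPM unscaled as deposited, quantile normalization, the replicate block, eBayes without a trend, only the 6 libraries compared and each library left out. The fit without 1G12t replicate 3 with the block was added after the data were seen.

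The members, gene lists, tests and naming rule were chosen with earlier results of these data known. The rule names all members, the up to 3 called genes with the largest fold change per list and comparison with EV no IL-2, the 3 immediate early genes with the largest excess in 1G12t replicate 3 and the 5 genes most like the members. Genes named beyond it (Nr4a1, Ier3, Myc, Csrnp1, Tnf, Il10 and Cd69 in 1G12t replicate 3, Nr4a1 and Cd40lg with IL-2, Nr4a1 and Dusp6 in the fits without that library, Il2ra, Ikzf2 and the leading short genes) were chosen after their values were seen. So were the low genes Ms4a1, Lyz2, Batf2, Csf2 and Il4. The labels give a shared sort per replicate number. Over 18 pairs of libraries with the same number, deviations from group means had a mean r of 0.0408 (−0.105 to 0.154), with 3 over 0.1. The code was tested on simulated data. R 4.3.3, Python 3.11.15 and matplotlib 3.10.9 were used.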

Additional observations from a re-analysis of the deposited data

How the results depend on the processing

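Depth is unknown for TPM, and the spread of 3 cultures of 1 pool is the only error. Replicate 3 of 1G12t set that spread for Fos and Jun in all comparisons of the fit of 12 libraries. For EV+IL-2 against EV no IL-2, the 2 members called became 1 with the filter dropped, 1 in the fit with the replicate block, 4 with only the 6 libraries, 4 without 1G12t replicate 3 with the replicate block, and 0 to 4 as single libraries were left out. For 3A10t against EV no IL-2 the count of 0 became 1 without 1G12t replicate 3 and stayed at 0 for every other library left out. For 3A10t against EV+IL-2 the count of 0 became 1 with the filter dropped (Atf3), 1 with TPM as deposited (Junb), 1 without 1G12t replicate 3 with the replicate block, and 0 to 2 as single libraries were left out. The paired fit with the replicate block changed no other call among the members. The log2 differences that changed sign were, first, Fosb in EV+IL-2 (0.16 with quantile normalization). In 1G12t against EV no IL-2 they were Jun (−0.059 to 0.86 over single libraries left out, −0.063 without 1G12t replicate 3 with the block), Jund (−0.13 to 0.27, below 0 at −0.025 and −0.083 without EV no IL-2 replicates 2 and 3, −0.0996 and −0.13 without 1G12t replicates 1 and 3, and −0.032 without 1G12t replicate 3 with the block), Junb (−0.011) and Ier2 (−0.051), both of the latter without 1G12t replicate 3 with the block. In 3A10t against 1G12t they were Fos (−1.25 to 0.65, with 0.61 under the block) and Jun (−0.67 to 0.25, with 0.26 under the block), both above 0 without 1G12t replicate 3, and Junb (−0.0056 to 0.24, lowest without 3A10t replicate 2, with −0.085 for TPM as deposited and −0.13 for quantile normalization). None of these was called, and the cause was not tested. Of the members' log2 differences under alternatives, 707 kept both their direction and their side of the threshold, 13 kept their direction and newly passed it, 10 kept their direction and no longer passed it, and 17 changed sign.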
